A study of Mus musculus with 8 samples.

Results

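The genes described here encode proteins of the mitochondrial ribosome, except Mrps36, whose protein belongs to another complex. They are the 78 protein-coding genes of the GENCODE M21 annotation whose symbol begins with Mrpl or Mrps followed by a digit, 49 with an Mrpl name and 29 with an Mrps name, out of 34547 genes in the files. All 78 had reads in every library and all 78 passed the filter on low counts, which left 13678 genes. A further 5 genes with such symbols are not annotated as protein-coding and were not included. Estimated reads and TPM (a level per unit of transcript length, scaled to the same total in each library) were summed per gene over its transcripts.

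The mitochondrial ribosome translates the mRNAs made inside the organelle, which encode core subunits of the respiratory chain and of ATP synthase. Its RNAs come from mitochondrial DNA, but all of its proteins are encoded in the nucleus, made in the cytosol and imported. The small subunit reads the codon, and the large subunit joins the amino acids and is held at the inner membrane, where its products are inserted. Some of the proteins have bacterial counterparts, and others are found only in mitochondria. In the fasted liver, mitochondria carry fatty acid oxidation, ketone body synthesis and part of glucose synthesis.

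Liver mRNA came from 8 C57BL/6J mice, each library from 1 mouse. In the Nudt7 group, 4 mice received a gene delivery virus, adeno-associated virus (AAV), that carried mouse Nudt7, which encodes a peroxisomal hydrolase of coenzyme A and acyl-CoAs. In the GFP group, 4 mice received AAV carrying green fluorescent protein, so that all 8 livers carried a virus and none was without one. A dose of 2.5e+11 particles in 150 µl went into the tail vein when the mice were 8 weeks old. Liver was collected after a further 3 to 4 weeks (mice aged 11 to 12 weeks) and a 24 h fast. The promoter of the vectors, the sex of the mice and any batch are not given in the labels. The comparison asks how a forced rise of Nudt7 changes the transcripts of the fasted liver, and here what happened to the nuclear genes for the mitochondrial ribosome. P-values measure the spread between these 8 mice.

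The libraries held 11187806 to 23640734 estimated reads, of which the 78 genes took between 0.165% and 0.248%. A single gene of the 78 had 28.0 to 1583 estimated reads in a library. Nudt7 itself stood at 1301, 1599, 3569 and 1555 CPM (reads scaled to library size) in Nudt7 replicates 1 to 4 and at 60.7 to 79.9 CPM in the GFP livers, as the labels have it. Nudt7 replicate 3 stood apart from the other 7 libraries. Principal component 1 (36.3% of the variance) put it at 63.1 and the others between -19.9 and 2.83. Its summed red blood cell markers (5 of 5 detected) were at 1813 CPM, against 303 to 642 CPM in the other 7 libraries. The 10 hepatocyte markers were all detected and summed to 67075 to 102483 CPM in the Nudt7 group and 80910 to 102453 CPM in the GFP group. Counts and medians over gene groups in the comparison of Nudt7 with GFP are therefore given with and without that library. Whether its high Nudt7 level, its blood markers or its preparation goes with the values described cannot be told apart with 1 library.

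In 3 of the 4 Nudt7 livers the 78 mRNAs, taken at their median, lay within the range of the GFP livers. In the fourth, replicate 3, they were 1.69-fold higher (median over the 78 genes, against the mean of the other 3 Nudt7 libraries). No gene of the 78 passed the test between the groups. Of the 78, 77 had a positive log2 fold change over all 8 libraries, against 49.8% of all genes tested. Without replicate 3, 47 of the 78 did, against 50.9% of all genes tested. The excess in replicate 3 was larger in short mRNAs than in long ones, as it was among all genes in that library, but the 78 genes also lay above other genes of their own length there.

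The 78 genes sit on 17 chromosomes, and whether promoter motifs go with the high values in Nudt7 replicate 3 was not tested. Promoter sequences are shown for 6 of the genes. They come from the RefSeq promoter table (build GRCm38.p6), run 5′ to 3′ on the gene's strand from base -100 to base 30 counted from the transcription start, and are in lower case with motif matches in capitals. The motifs searched on both strands were GCGCANGCG for NRF1 (nuclear respiratory factor 1), CCGGAAG for GABPA and other ETS factors, and AAGATGGCG for YY1, a motif that can also span the start codon of mRNAs with very short leaders. The 6 were picked from the genes named by rule because a match lies in this stretch.
Mrpl12 (chr11:120484537-120484666, plus strand): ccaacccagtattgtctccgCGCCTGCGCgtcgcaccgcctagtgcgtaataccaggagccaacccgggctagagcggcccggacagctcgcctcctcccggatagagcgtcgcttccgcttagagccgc
Mrpl14 (chr17:45686249-45686378, plus strand): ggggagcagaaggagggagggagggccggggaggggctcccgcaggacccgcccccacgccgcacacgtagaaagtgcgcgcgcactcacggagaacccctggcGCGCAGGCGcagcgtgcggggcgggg
Mrpl17 (chr7:105811058-105811187, minus strand): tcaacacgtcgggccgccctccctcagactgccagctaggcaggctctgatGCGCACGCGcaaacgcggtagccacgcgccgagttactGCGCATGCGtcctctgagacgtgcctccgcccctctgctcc
Mrps16 (chr14:20393461-20393590, minus strand): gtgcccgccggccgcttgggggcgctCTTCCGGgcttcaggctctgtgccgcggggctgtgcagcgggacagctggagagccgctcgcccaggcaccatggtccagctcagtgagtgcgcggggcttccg
Mrps18a (chr17:46110904-46111033, plus strand): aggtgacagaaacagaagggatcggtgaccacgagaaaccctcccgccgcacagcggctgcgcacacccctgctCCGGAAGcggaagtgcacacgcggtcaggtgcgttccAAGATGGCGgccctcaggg
Mrps27 (chr13:99344686-99344815, plus strand): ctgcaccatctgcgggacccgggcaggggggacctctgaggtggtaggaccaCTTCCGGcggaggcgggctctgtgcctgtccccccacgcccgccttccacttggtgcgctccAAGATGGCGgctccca
The capitals mark the NRF1 motif in Mrpl12 (on the reverse strand), Mrpl14 and Mrpl17 (in 2 places), and the ETS motif in Mrps16 and Mrps27 (both on the reverse strand) and in Mrps18a. In Mrps18a and Mrps27 the capitals nearest the 3′ end mark the YY1 motif. Mrps16 has 2 listed starts, and the first is shown.

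Of the 78 genes, 69 had a window in that table (75 windows of 250 bases before to 50 after a start), and 9 did not. The ETS motif was in 34.7% of the 75 windows, against 8.86% of all 32851 windows and 16.2% of the 13193 windows of tested genes. The NRF1 motif was in 21.3%, against 6.25% and 12.3%, and the YY1 motif in 10.7%, against 1.40% and 2.80%. The E-box CACGTG was in 9.33%, against 7.15% and 9.35%. TATAAA, searched on the gene's strand only, was in 5.33%, against 8.32% and 4.96%. The ERR alpha motif TCAAGGTCA was in 0 of the 75 windows, against 0.423% of all windows and 0.265% of those of tested genes. Windows of the 78 genes had a median G+C content of 58.7%, against 60.0% for tested genes. At least 1 of the NRF1, ETS and YY1 motifs was in the windows of 42 of the 69 genes, and none of the 3 in those of 27. These are matches of letters, and no binding was measured. Mrps11 and Mrpl46, for the small and the large subunit, overlap on opposite strands of chromosome 7.

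The levels of the 78 genes spread over 43.3-fold. Their median was 32.2 TPM over all libraries (quartiles 20.3 and 49.9 TPM), against 9.25 TPM for all genes tested, and 75 of the 78 lay above that value. Cytosolic ribosomal protein genes were at a median of 277 TPM (76 genes) and complex I subunit genes at 137 TPM (36 tested genes). Median levels were 29.0 TPM for the 26 small-subunit genes and 33.6 TPM for the 51 large-subunit genes. Mrps30 and Mrps18a are counted with the large subunit, where their proteins sit despite their names. Mrps36 belongs to neither, as its protein is a subunit of the 2-oxoglutarate dehydrogenase complex. Genes with bacterial counterparts (46) had a median of 33.5 TPM and those specific to mitochondria (31) 28.4 TPM.

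**Figure D1:**
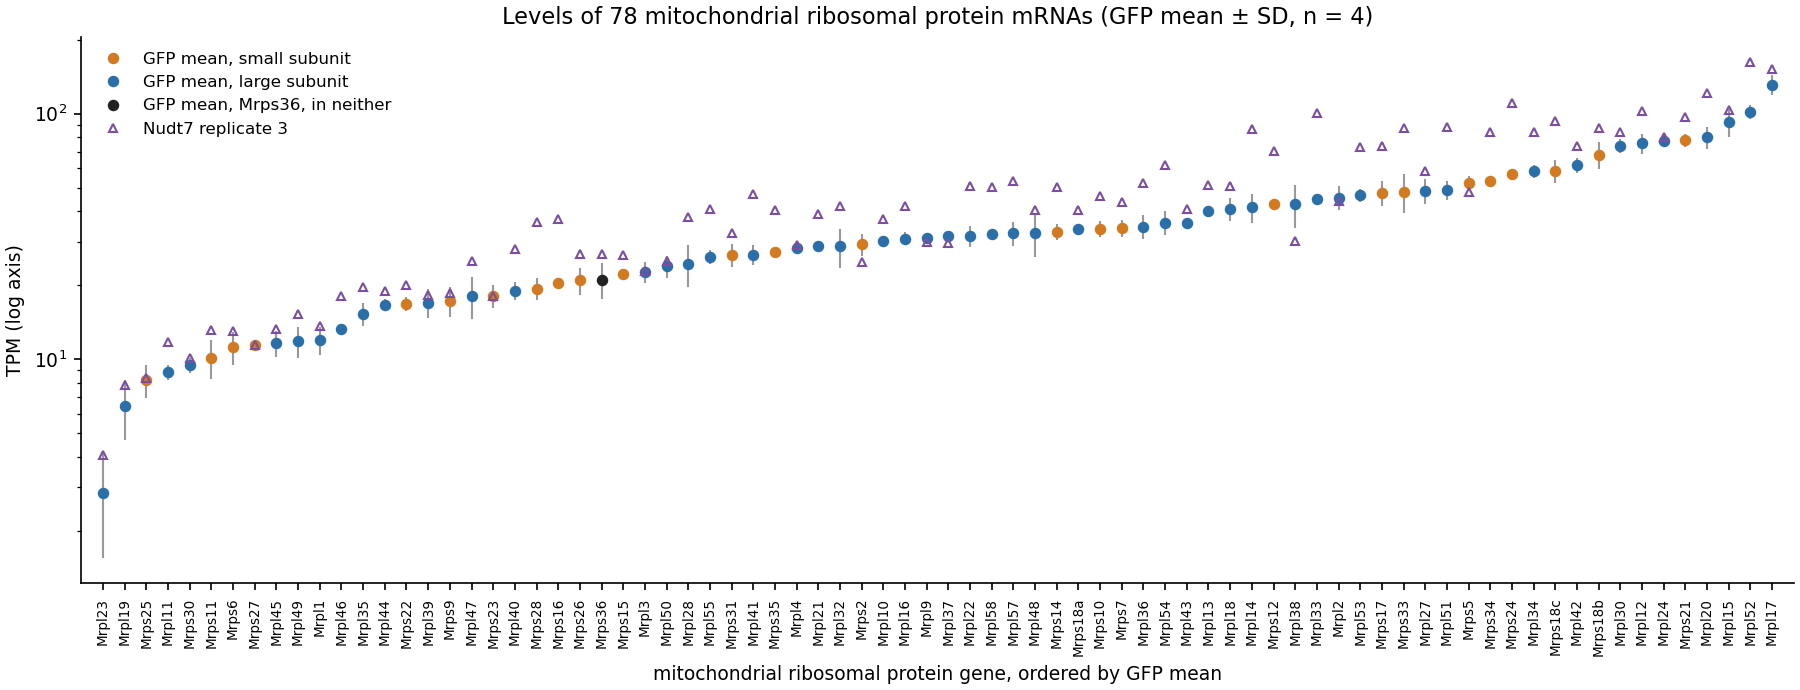
TPM (log axis) of each of the 78 genes, ordered by the mean of the 4 GFP libraries; filled points are GFP means with SD (n = 4), coloured by subunit, and open triangles are Nudt7 replicate 3. Levels ran from Mrpl23 at the left to Mrpl17 at the right, and most triangles lie above the GFP mean.

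Mrpl17 (chromosome 7, 105803206 to 105811099, GRCm38), a large-subunit protein with a bacterial counterpart, had the highest level: 138, 130, 115 and 142 TPM in GFP replicates 1 to 4 and 115, 125, 152 and 108 TPM in Nudt7 replicates 1 to 4. The groups overlapped, with replicate 3 on top. Mrpl52 followed at 102 ± 6.30 TPM in the GFP group and Mrpl15 at 92.2 ± 12.0 TPM (SD, n = 4). At the other end, Mrpl23, at the exit of the peptide tunnel, was at 2.85 ± 1.30 TPM, Mrpl19 at 6.42 ± 1.76 TPM and Mrps25 at 8.19 ± 1.25 TPM (SD, n = 4). Mrpl17 lay above Mrpl52 in each GFP library, while the ranges of Mrpl52 and Mrpl15 overlapped. Mrpl23 was the lowest of the 78 in every library, on TPM and on CPM. Its reads were assigned unevenly to its transcripts. The main transcript held 0% of the gene's TPM in GFP replicates 1 and 2 and 48.9% to 71.3% in the other 6 libraries, and 13.9% of its 31-base words also occur in other genes, among them the pseudogene Mrpl23-ps1.

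The order of the 78 levels was kept from liver to liver. Spearman's rho between the TPM of 2 libraries, over the 78 genes, was 0.950 to 0.981 in the 21 pairs without Nudt7 replicate 3 and 0.903 to 0.958 in the 7 pairs with it. These correlations are across genes of shared libraries and are given as a description. Over the 7 libraries without replicate 3, the coefficient of variation of a gene's CPM had a median of 10.0%. It ran from 2.64% for Mrpl51 to 16.2% for Mrpl41, both in the large subunit.

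Summed over the 78 genes, the level was 2751, 2689, 3812 and 2693 TPM in Nudt7 replicates 1 to 4 and 2728, 2852, 2808 and 2830 TPM in GFP replicates 1 to 4. Replicate 3 was above all other libraries. Nudt7 replicate 1 lay inside the GFP range, and replicates 2 and 4 lay below all 4 GFP livers. Without replicate 3, the Nudt7 livers were at 2711 ± 35.0 TPM (n = 3), against 2805 ± 53.9 TPM in the GFP livers (n = 4, SD). On summed CPM, Nudt7 replicates 1, 2 and 4 were at 1629, 1636 and 1706 CPM, inside the GFP range of 1588 to 1761 CPM. The balance of the subunits in replicate 3 lay inside the spread of the other Nudt7 livers. In Nudt7 replicates 1, 2 and 3 it was below the GFP range, and in replicate 4 above it. The ratio of summed large-subunit to summed small-subunit TPM was 2.09, 2.11, 2.10 and 2.29 in Nudt7 replicates 1 to 4 and 2.20 to 2.24 in the GFP group.

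For each library, the deviation of each gene's log2 CPM from the mean of the GFP libraries was taken (for a GFP library, from the other 3). Its median over the 78 genes was 0.00, -0.02 and 0.03 in Nudt7 replicates 1, 2 and 4, between -0.04 and 0.09 in the GFP libraries, and 0.77 in Nudt7 replicate 3. Replicate 3 was the highest of the 8 libraries for 76 of the 78 genes (97.4%), against 28.3% of all genes tested. Among tested genes with transcripts of up to 1809 bases, which include 69 of the 78, it was highest for 56.5%. The exceptions among the 78 were Mrpl38, highest in Nudt7 replicate 4, and Mrps2, highest in GFP replicate 4. On TPM, replicate 3 was highest for 56 of the 78 genes (71.8%), against 10.6% of all genes tested and 27.0% of those short ones. Against the mean of the other 3 Nudt7 libraries, replicate 3 was 1.07-fold (Mrps2) to 2.85-fold (Mrpl41) higher, and 23 of the 78 genes were more than 2-fold higher, against 4.45% of all genes tested. In bulk liver, more RNA per cell and more cells of a type that is rich in these mRNAs cannot be told apart.

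**Figure D2:**
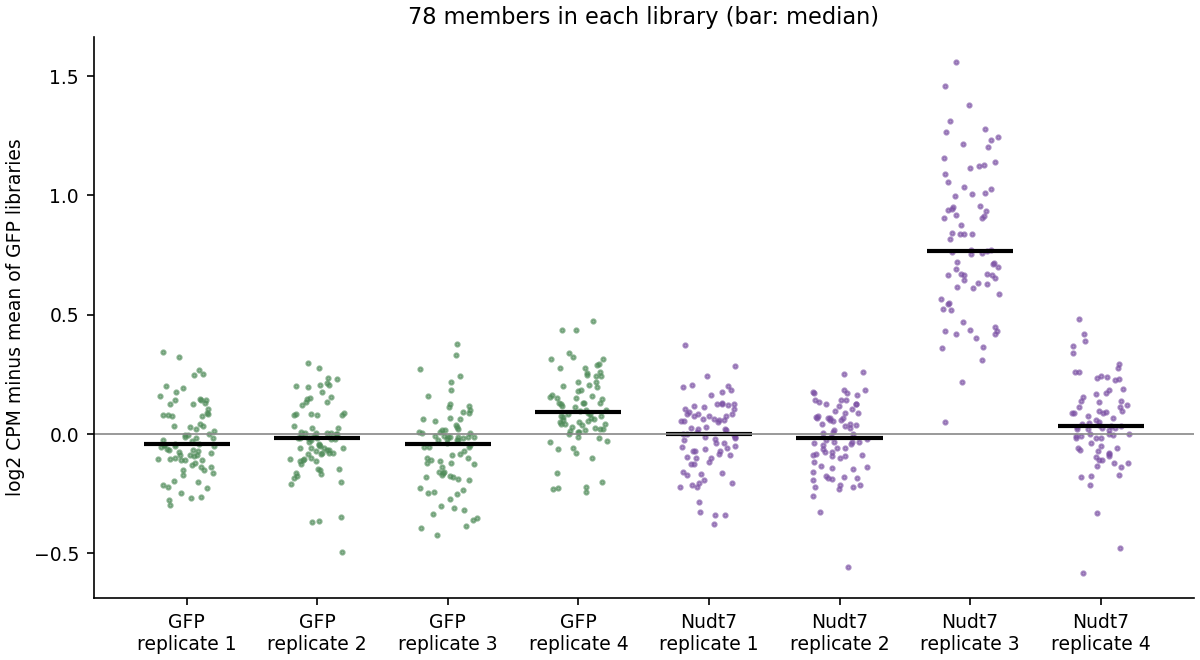
Each point is 1 of the 78 genes in 1 library, as log2 CPM minus the mean of the GFP libraries (for a GFP library, of the other 3), and the bar is the median. Medians lie between -0.04 and 0.09 in 7 libraries and at 0.77 in Nudt7 replicate 3.

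Between the groups, 0 of the 78 genes were called by edgeR's quasi-likelihood test (Benjamini-Hochberg adjusted p over every tested gene from 0.595 to 0.975), while 0.117% of the 13678 genes were called in either direction. At an unadjusted p under 0.05, 1 of the 78 was higher in Nudt7 (4.25% of all genes) and 0 were lower (4.03% of all genes). DESeq2 also called 0 of the 78 (1.17% of the genes to which it gave an adjusted p). On CPM, the 4 Nudt7 libraries lay above all 4 GFP libraries for 0 of the 78 genes (2.74% of all genes) and below them for 0 (3% of all genes). On TPM, only Mrps18a had its Nudt7 libraries above all GFP libraries (1.05% of all genes), and only Mrpl9 had them below (4.36% of all genes).

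The median log2 fold change (Nudt7 over GFP) of the 78 genes was 0.27, with quartiles of 0.14 and 0.34. It was 0.00 over all genes tested and 0.11 over those of up to 1809 bases, which include 69 of the 78. Positive values were found for 77 of the 78 genes, against 49.8% of all genes tested and 66.1% of those short ones. With tested genes in 5 equal length classes, the shortest held 59 of the 78. Its median was 0.16, and 70.2% of its genes were positive. Within the 78, the median was 0.27 for the small subunit and 0.27 for the large one. It was 0.26 and 0.28 for genes with and without bacterial counterparts. Without Nudt7 replicate 3 the median was 0.03 (0.04 for the small and 0.02 for the large subunit, 0.04 and 0.03 for genes with and without bacterial counterparts), 47 of the 78 genes were positive and 0 had an unadjusted p under 0.05 in either direction (8.29% of all genes in that fit). The median standard error fell from 0.189 to 0.124. In that fit the 95% intervals of all 78 genes lay within a 2-fold change in either direction, and those of 77 within a 1.5-fold change. Those limits apply to the 3 livers left and were chosen after the values were seen.

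**Figure D3:**
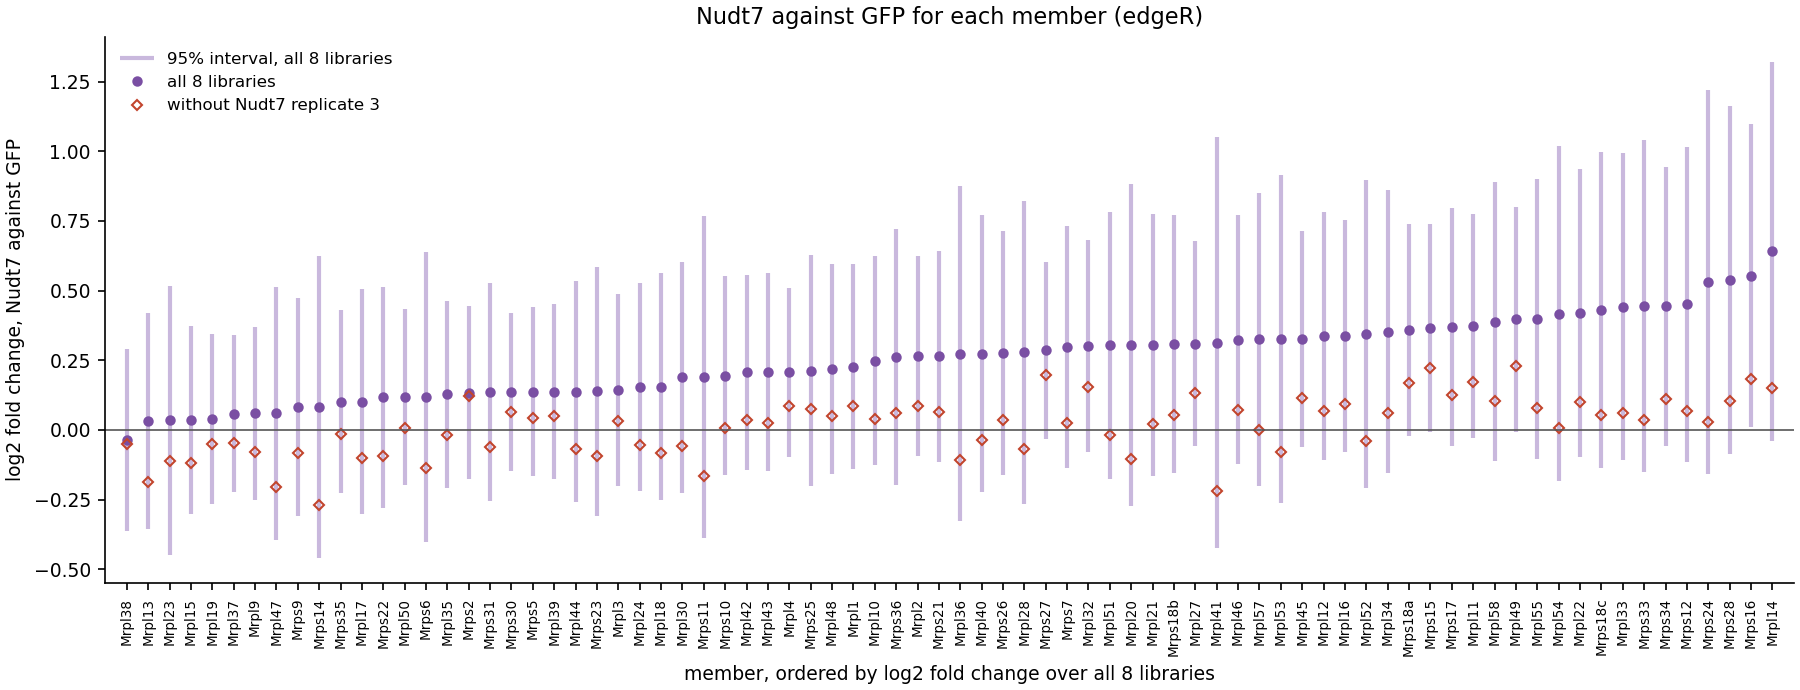
Log2 fold change of each of the 78 genes, Nudt7 against GFP, from edgeR: filled points and 95% intervals for all 8 libraries, open diamonds without Nudt7 replicate 3. Of the filled points 77 lie above 0 and of the diamonds 47.

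Mrps16, a small-subunit protein with a bacterial counterpart, had the smallest p (chromosome 14, 20389304 to 20393634; promoter with an ETS match above). Its level was 14.5, 15.0, 31.4 and 13.1 CPM in Nudt7 replicates 1 to 4 and 13.3, 12.0, 12.2 and 12.8 CPM in GFP replicates 1 to 4. Replicate 3 was far above the rest, replicates 1 and 2 were just above the GFP range and replicate 4 was inside it. The log2 fold change was 0.55 ± 0.25 (SE), with an adjusted p of 0.595 by edgeR, and 0.18 ± 0.12 without replicate 3. Of the gene's mean TPM over the 8 libraries, 83.7% was assigned to a transcript that is not annotated as protein-coding.

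Mrpl14, in the large subunit at the face that assembly factors cover, had the largest log2 fold change (chromosome 17, 45686322 to 45698495; promoter with an NRF1 match above). It was at 13.7, 13.5, 37.6 and 14.9 CPM in the Nudt7 livers and 14.1, 14.3, 11.5 and 11.2 CPM in the GFP livers. The first 2 Nudt7 values lay inside the GFP range, the last lay just above it, and replicate 3 was more than 2-fold above every other library. Its log2 fold change was 0.64 ± 0.31 (edgeR adjusted p 0.616), and 0.15 ± 0.13 without replicate 3.

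Mrpl49, a mitochondria-specific protein of the large subunit on chromosome 19 (6053622 to 6057785), was less tied to 1 library. It stood at 16.4, 12.9, 24.1 and 17.7 CPM in the Nudt7 group and at 14.3, 11.2, 15.1 and 13.5 CPM in the GFP group. Nudt7 replicates 1, 3 and 4 were above all GFP libraries and replicate 2 was inside their range. The log2 fold change of 0.40 ± 0.18 (edgeR adjusted p 0.600) became 0.23 ± 0.15 without replicate 3, the highest of the 78 in that fit, with an adjusted p of 0.754.

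Mrps15 (chromosome 4, 126046925 to 126055532), in the small subunit, was at 12.3, 12.1, 20.01 and 16.6 CPM in the Nudt7 livers and at 11.2, 11.5, 12.2 and 12.4 CPM in the GFP livers. Replicates 3 and 4 were above the GFP range, and the other 2 were inside it. Its log2 fold change was 0.37 ± 0.17 (edgeR adjusted p 0.600), and 0.22 ± 0.14 without replicate 3. Mrps27, a small-subunit protein of the pentatricopeptide repeat family, was at 16.2, 13.8, 18.3 and 12.9 CPM against 11.1, 13.0, 12.2 and 13.7 CPM. Here replicates 1 and 3 were clearly above the GFP libraries, replicate 2 barely so, and replicate 4 inside their range (log2 fold change 0.29 ± 0.15, edgeR adjusted p 0.642, and 0.20 ± 0.13 without replicate 3).

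Mrps34, a mitochondria-specific small-subunit protein, was at 30.1, 32.4, 66.5 and 33.4 CPM in the Nudt7 livers and at 28.9, 29.9, 27.3 and 33.1 CPM in the GFP livers. Its value is uncertain, since 35.6% of its 31-base words also occur in the overlapping gene Nme3. Mrpl11, at the base of the stalk that recruits translation factors, was at 17.6, 17.3, 30.6 and 21.05 CPM against 15.4, 17.4, 15.1 and 18.9 CPM. In both genes replicate 3 was highest, replicate 4 was just above the GFP range and replicates 1 and 2 were inside it. Mrpl12, the stalk protein itself, was at 64.2, 67.5, 125 and 69.7 CPM against 55.9, 68.9, 64.5 and 68.8 CPM, and only replicate 3 was far from the GFP values. Its log2 fold change was 0.34 ± 0.20 (edgeR adjusted p 0.676), and 0.07 ± 0.10 without replicate 3.

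Mrps12, of the decoding centre, repeated that pattern with 18.0, 15.4, 35.9 and 14.2 CPM in the Nudt7 livers against 16.9, 14.5, 14.1 and 15.4 CPM. Mrpl58, a peptidyl-tRNA hydrolase built into the large subunit, was at 13.2, 10.9, 26.0 and 16.4 CPM against 12.4, 12.0, 13.1 and 13.3 CPM. Nudt7 replicates 3 and 4 were above its GFP range and replicate 2 was below it. Mrps36, the member outside the ribosome, was at 6.48, 6.71, 11.0 and 6.78 CPM against 7.27, 4.89, 7.03 and 6.56 CPM. The mRNA of this gene, with a main transcript of 701 bases, was thus also highest in replicate 3. That library was highest for 56.5% of tested genes of up to 1809 bases. Of the 31-base words of Mrps36, 21.02% occur in other genes, the pseudogenes Mrps36-ps1 and Mrps36-ps2 among them.

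The 3 Mrps18 paralogs are related to 1 bacterial protein and sit at different places in the ribosome; of them, only Mrps18c is counted above among the genes with bacterial counterparts. Mrps18a (large subunit) was at 35.2, 37.0, 40.6 and 36.3 TPM in the Nudt7 livers and 32.6, 34.7, 32.9 and 34.8 TPM in the GFP livers, and the groups did not overlap. The gap between the lowest Nudt7 and the highest GFP value was small, and on CPM the groups overlapped (log2 fold change 0.36 ± 0.17, edgeR adjusted p 0.616, and 0.17 ± 0.12 without replicate 3). Mrps18b and Mrps18c (small subunit) had log2 fold changes of 0.31 ± 0.21 and 0.43 ± 0.26, and of 0.05 ± 0.13 for each without replicate 3. The abundance of Mrps18b was 68.0 ± 8.66 TPM, that of Mrps18c 58.6 ± 6.48 TPM and that of Mrps18a 33.8 ± 1.19 TPM in the GFP livers (SD, n = 4). Mrps18a was below the other 2 in every GFP library, while Mrps18b and Mrps18c overlapped.

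Mrpl38 was the only gene of the 78 with a negative log2 fold change, -0.04 ± 0.15 (edgeR adjusted p 0.958). It stood at 26.4, 32.2, 35.6 and 40.6 CPM in the Nudt7 livers and 35.7, 28.4, 36.0 and 38.1 CPM in the GFP livers, and its sign turned to 0.08 without Nudt7 replicate 1 and to 0.03 without GFP replicate 4. Replicate 3 lay inside the GFP range for this gene. Its transcript length, 1216 bases, is near the median of the 78.

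Without replicate 3, the 78 genes scattered around 0. Mrpl13 and Mrps14 had all 3 remaining Nudt7 libraries below all 4 GFP libraries (5.04% of all genes), and 0 of the 78 had them above (4.27% of all genes). Mrps14 was at 16.2, 15.3 and 11.5 CPM in Nudt7 replicates 1, 2 and 4, against 16.3 to 18.7 CPM in the GFP livers, and at 30.6 CPM in replicate 3. Its log2 fold change was 0.08 ± 0.25 over all libraries and -0.27 ± 0.13 without replicate 3 (edgeR adjusted p 0.645). In Nudt7 replicates 1, 2 and 4 alike, 14 of the 78 genes (17.9%) were above the GFP mean, against 20.3% of all genes tested, and 13 (16.7%) were below it, against 21%.

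The 78 mRNAs are short. Their abundance-weighted transcript length had a median of 1081 bases, from 427 (Mrpl52) to 3357 bases (Mrpl19), against 2392 bases over all genes tested. Of the 3 equal length classes of the tested genes, the short one (up to 1809 bases) held 69 of the 78, the middle one 7 and the long one 2. Over all 8 libraries the log2 fold change of the 78 genes went down with length (Spearman's rho -0.51 across the genes), and it did so over all genes tested (rho -0.32). Without replicate 3 the values were 0.00 and 0.03. Genes are not independent replicates, and these are descriptions.

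Library by library, the slope of the deviation per doubling of length was -0.30 over the 78 genes and -0.34 over all genes tested in Nudt7 replicate 3. In the other 7 libraries it lay between -0.05 and 0.04 for both. In replicate 3 the median deviation of all tested genes was 0.40 in the short class, 0.01 in the middle class and -0.37 in the long class. Among the 78 genes it was 0.82 in the short class, 0.52 in the middle class (7 genes) and 0.34 in the long class (2 genes). Both long members lay near the short end of their class, between 3271 and 3573 bases. Tested genes of those lengths had a median of -0.21, so the 2 members were above genes of like length by less than above their class.

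With tested genes sorted into 20 bins by length, 69 of the 78 genes (88.5%) lay above the median of their own bin in replicate 3, by a median of 0.32 log2 units (quartiles 0.12 and 0.47). In the other libraries the median was between -0.07 and 0.05, and 24 to 51 of the 78 genes were above their bin. Mrps30, one of the 2 longest (3326 bases), was at 18.1, 17.9, 22.5 and 18.7 CPM in the Nudt7 livers against 17.3, 15.9, 16.7 and 20.2 CPM, and Mrpl19, the longest, at 14.4, 13.9, 19.0 and 15.7 CPM against 14.6, 14.7, 17.6 and 14.5 CPM. Both were highest in replicate 3, though by less than the shortest genes. Mrpl52, the shortest, was at 34.5 CPM in replicate 3 against 14.3 to 16.8 CPM in the other 7 libraries, and Mrps21 (471 bases) at 31.04 CPM against 17.3 to 20.8 CPM.

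**Figure D4:**
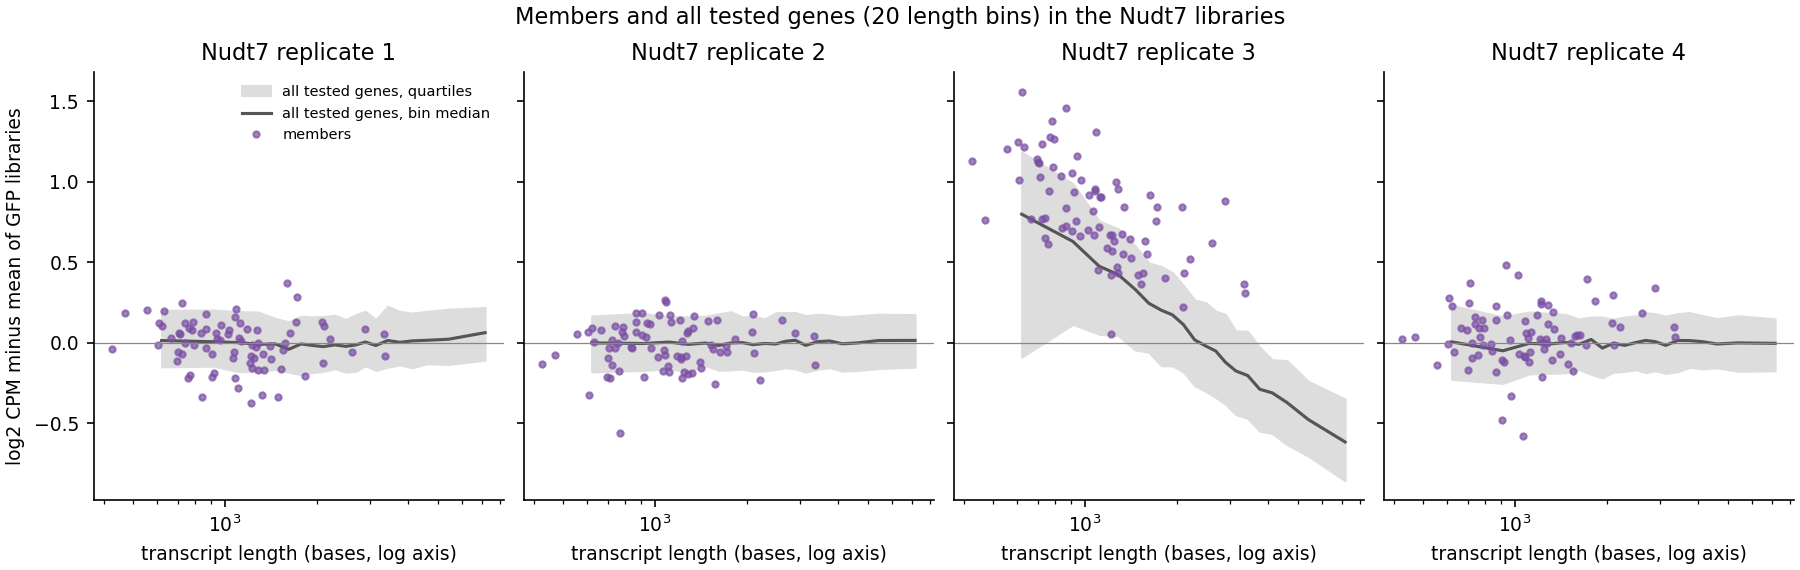
Log2 CPM minus the mean of the GFP libraries against transcript length (bases, log axis) in the 4 Nudt7 libraries; points are the 78 genes, the line and band are the median and quartiles of all tested genes in 20 length bins. In replicate 3 the line falls from 0.80 in the shortest bin to -0.62 in the longest and 69 of the 78 points lie above their bin's median.

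When the smooth trend of each library with length was taken out before the test, the median log2 fold change of the 78 genes was 0.10 and 58 were positive, against 50.1% of all genes tested, with 0 called. Mrps16 kept the smallest adjusted p by edgeR (0.454), at a log2 fold change of 0.37. On this scale 1 of the 78, Mrps28 of the small subunit, had its Nudt7 libraries above all GFP libraries (3.15% of all genes) and 0 had them below (3.11% of all genes). Removing the length trend and leaving out replicate 3 together gave a median of 0.04 and 48 positive genes. The part of length in the excess of replicate 3 was not tested further.

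Transcript use within the 78 genes did not separate the groups. The most abundant transcript held a median of 82.0% of a gene's TPM, and in 29 genes more than 90%. Of the 50 genes with at least 2 transcripts above 5%, the share of the main transcript separated the groups in 0, against 2.35% of such genes overall. The main transcript of Mrps18c, for example, held 71.4% of its TPM in Nudt7 replicate 3, 15.7% to 40.4% in the other Nudt7 libraries and 12.5% to 30.8% in the GFP libraries. Mrps16, Mrpl15 and Mrps25 had a main transcript that is not annotated as protein-coding, as did 14 of the 78 in all. It held 83.7%, 53.9% and 74.6% of the gene's mean TPM over the 8 libraries. Most of the TPM of these 3 genes is thus not coding mRNA by annotation. Of the 78, 27 shared no 31-base word with another gene and 15 shared over 10%. Mrpl53 shared 84.4%, with the overlapping read-through gene Gm42688, and is uncertain for that reason. Exons of 28 overlap a gene on the opposite strand. The kit was stranded, but whether the counting used strand is not given in the sources used here.

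The partners of these genes were compared through lists of genes, given with their counts in the same fit. Of the 5 other proteins of the mitochondrial ribosome without an Mrp symbol, 5 were positive and 0 were called (median log2 fold change 0.31, and 0.02 without replicate 3). Gadd45gip1, a large-subunit protein, was at 17.02, 13.9, 32.7 and 18.6 CPM in the Nudt7 livers and at 15.0 to 17.2 CPM in the GFP livers, and Aurkaip1, of the small subunit, at 24.5, 24.4, 47.6 and 20.9 CPM against 22.1 to 24.97 CPM. In both, only replicate 3 was well above the GFP range. Dap3, a GTP-binding small-subunit protein, had a log2 fold change of 0.20 ± 0.16 (edgeR adjusted p 0.728).

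The 27 assembly factors in the files had a median of 0.09 and 17 were positive, but without replicate 3 the median was -0.04 and 10 were positive. Trub2, a pseudouridine synthase, had 0.45 ± 0.20 and the helicase Dhx30 -0.22 ± 0.11 (edgeR adjusted p 0.586 and 0.641). Among 17 translation factors, 14 were positive (median 0.11), and 12 without replicate 3 (median 0.08). The 2 of smallest p were Slirp, an RNA-binding partner of Lrpprc, at 0.75 ± 0.32 and the release factor Mtrf1 at 0.45 ± 0.19 (edgeR adjusted p 0.581 for each). Lrpprc itself, which keeps mitochondrial mRNAs stable, was at 0.00 ± 0.11, and the elongation factor Tufm at 0.15 ± 0.13. Slirp is encoded by a short mRNA and Lrpprc by a long one, and in replicate 3 Slirp was at 27.8 CPM against 7.69 to 11.1 CPM elsewhere, while Lrpprc was inside its range at 110 CPM.

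Of the 20 tRNA synthetases and amidotransferase subunits, 14 were positive (median 0.11), and 13 without replicate 3 (median 0.08). The 2 of smallest p were Gatc at 0.27 ± 0.12 (edgeR adjusted p 0.590) and Fars2 at 0.28 ± 0.16 (0.670). Of the 10 genes for mitochondrial DNA upkeep and transcription, 4 were positive with replicate 3 and 4 without it (median -0.03 in both fits). Polg, the DNA polymerase, had -0.34 ± 0.15 (edgeR adjusted p 0.581), Ssbp1, the single-strand binding protein, 0.34 ± 0.19, Tfam 0.13 ± 0.13 and Polrmt -0.06 ± 0.12. None of these lists held a called gene by edgeR.

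Regulators of nuclear genes for mitochondria went the other way from the ribosomal proteins in sign, with 2 of 10 positive, a median of -0.18 and 0 called. Without replicate 3, 3 were positive and the median was -0.15. Ppargc1a, the fasting-induced coactivator, was at 15.6, 9.98, 13.0 and 18.6 CPM in the Nudt7 livers and at 35.0, 32.9, 16.8 and 12.4 CPM in the GFP livers. GFP replicates 1 and 2 were high, GFP replicates 3 and 4 lay inside the Nudt7 range, and the groups overlapped (log2 fold change -0.75 ± 0.32, edgeR adjusted p 0.581). Pprc1 had -0.40 ± 0.17 (edgeR adjusted p 0.581), Nrf1 -0.18 ± 0.11 (0.676) and Gabpa -0.02 ± 0.17 (0.983). In replicate 3, Ppargc1a was inside its range, and Nrf1 (15.6 CPM) and Gabpa (30.3 CPM) were each the lowest of the 8 libraries. That library was the lowest for 27.9% of all genes tested. Its median deviation from the GFP mean was -0.37 over the longest of 3 length classes of tested genes. A link between these regulators and the ribosomal protein mRNAs was not tested.

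The 13 mRNAs that the mitochondrial ribosome translates were not high in replicate 3. Their sum was 82074, 80092, 67323 and 114269 CPM in Nudt7 replicates 1 to 4 and 66086 to 97384 CPM in the GFP livers. On this sum, replicate 3 was the lowest Nudt7 library and lay inside the GFP range. Taken gene by gene, its median deviation from the GFP mean was -0.46, the lowest of the 8 libraries (GFP replicate 3 was at -0.35). Of the 13 mRNAs, 2 were above the GFP mean in replicate 3. With the length trend removed, their median deviation was -1.03 in Nudt7 replicate 3 and -0.33 in GFP replicate 3. The median log2 fold change was 0.08, 10 of 13 were positive and 0 were called. Without replicate 3 the median was 0.23 and 12 were positive, with 0 called. The most abundant of those named, mt-Co1, had 0.20 ± 0.20 and mt-Nd3 -0.32 ± 0.16 (edgeR adjusted p 0.785 and 0.641).

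Other gene groups were high in replicate 3 as well. Cytosolic ribosomal protein genes, whose mRNAs are also short, summed to 17435 CPM there against 7535 to 9466 CPM in the other 7 libraries, and 76 of 76 were highest in that library. Their median log2 fold change was 0.32 with 75 positive, and -0.07 with 15 positive without replicate 3. Rpl32 and Rpl5 had the smallest p among them (log2 fold changes of 0.67 ± 0.36 and 0.35 ± 0.15, edgeR adjusted p 0.663 and 0.581). Complex I subunit genes summed to 4130 CPM there against 1980 to 2145 CPM, and 35 of 36 were highest there. Their median was 0.34 with 36 positive, and 0.02 with 24 positive without replicate 3. The 2 of smallest p were Ndufv3 at 0.56 ± 0.23 (edgeR adjusted p 0.559) and Ndufa1 at 0.57 ± 0.30 (0.655). The median deviation in replicate 3 was 1.05 for both lists and 0.77 for the 78 genes. With the length trend removed it was 0.33, 0.31 and 0.29.

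**Figure D5:**
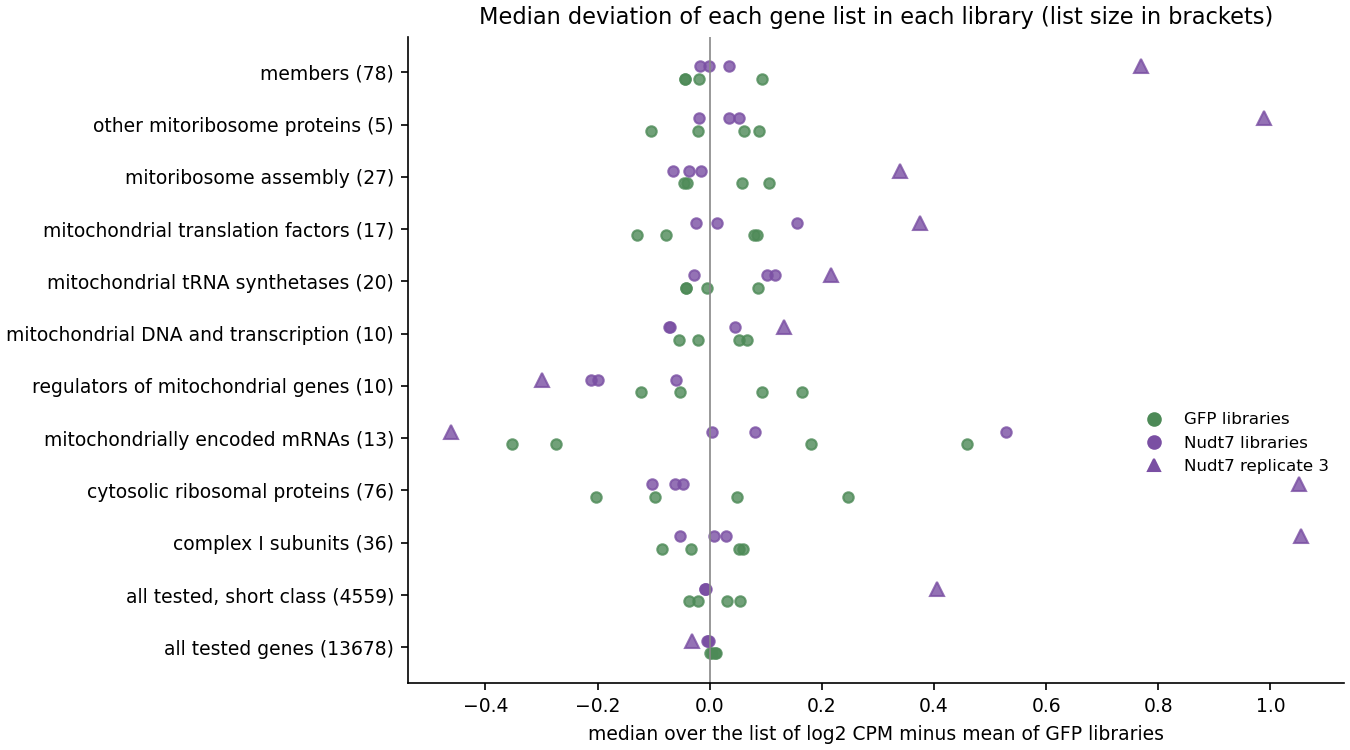
Median over each gene list of log2 CPM minus the mean of the GFP libraries, 1 symbol per library, with the number of genes in brackets; the triangle is Nudt7 replicate 3. The triangle is at 0.77 for the 78 genes, 1.05 for cytosolic ribosomal proteins and -0.46 for the mitochondrially encoded mRNAs, and the other libraries lie near 0 in most lists.

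Marker sums of other cell types are given as the Nudt7 range, then the GFP range, in CPM. Kupffer cell markers (8 of 8 detected) summed to 129 to 276 and 141 to 228, endothelial markers (6 of 6) to 291 to 320 and 325 to 344, and stellate cell markers (6 of 6) to 204 to 238 and 201 to 245. Cholangiocyte markers (5 of 5) summed to 31.6 to 42.5 and 17.3 to 29.4, with replicate 3 the highest at 42.5. The groups did not overlap for the endothelial sums, lower in Nudt7, or for the cholangiocyte sums, higher in Nudt7 with and without replicate 3. Lymphocyte (6 of 6), neutrophil (4 of 4) and muscle and fat markers (3 of 4, with Myh4 at 0) did not exceed 7.11, 2.12 and 2.04 CPM in any library. In replicate 3 the Kupffer sum was also the highest of the 8, at 276 CPM, and the hepatocyte sum was at 102483 CPM. The part of these cells in the values of the 78 genes was not tested.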

How the data were processed

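The 8 libraries were quantified by the authors with Salmon, and FastQC, DESeq2 and GRCm38 are also named, per the submitters' processing notes. No source used here gives the version, index or options of Salmon. Per the file headers, each deposited file gives, for 109282 transcripts, the length, the effective length in bases, the TPM and the estimated count of reads (not normalized). Transcripts were assigned to genes with GENCODE M21 (GRCm38); 98.8% were named, and the unnamed held 0.552% to 1.06% of a library's reads and did not enter the test.

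The sum of estimated counts per gene was rounded. The test was edgeR 4.0.16 (R 4.3.3) quasi-likelihood, robust, with TMM scaling and filterByExpr, two-sided, adjusted by Benjamini-Hochberg over 13678 genes, threshold 0.05. CPM uses TMM-scaled library sizes. Levels between genes are TPM. DESeq2 1.42.0, limma 3.58.1 and the other settings are given under the processing. In simulated data (13480 genes tested on average) the test recovered 1.35% of genes changed 1.2-fold and 13.6% of those changed 1.5-fold. It recovered 63.8% at 2-fold and 97.2% at 4-fold. A 1.2-fold change is a log2 fold change of 0.263, close to the median of the mitochondrial ribosomal protein genes (0.27). That none of them was called therefore says little about a change of that size. Fold-change intervals include variation between livers. The reads carry no molecular identifiers, so PCR copies count more than once.

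The 78 genes and the lists were chosen with earlier results of these data known. Subunit and ancestry assignments, the motifs and the 20 length bins were written after the files were seen. The rule for naming took genes called, the 8 of smallest p in each direction, the 3 highest and 3 lowest in TPM, the 2 longest and 2 shortest, and Mrps18a, Mrps18b, Mrps18c, Mrps36, Mrpl58, Mrps30, Mrpl12 and Mrps12 (23 genes in all), and in each list the 2 of smallest p plus Lrpprc, Tfam, Polrmt, Tufm, Ppargc1a, Nrf1, Gabpa and Dap3. Mrpl9, Mrpl13, Mrpl41, Mrpl46, Mrpl51, Mrpl53, Mrps2, Mrps11, Mrps14 and Mrps28 fall outside it and were named after their values were seen. Of 28 listed assembly factors, 27 were found.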

Additional observations from a re-analysis of the deposited data

Results flagged for a closer look

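Values below stood so far from the other 3 of their group that the gap exceeded the 95% critical value of Dixon's test for 4 samples. Chance does this in about 1 in 20 groups. In Nudt7 replicate 3 these were Mrpl12 at 125 CPM, Mrpl14 at 37.6 CPM, Mrpl52 at 34.5 CPM, Mrps16 at 31.4 CPM, Mrps18a at 31.04 CPM, Mrps30 at 22.5 CPM, Mrps34 at 66.5 CPM and Mrps36 at 10.95 CPM. The same library stood apart in the summed level of the 78 genes (3812 TPM and 2856 CPM), in their median deviation from the GFP livers (0.77 log2 units), and in the sums for cytosolic ribosomal proteins (17435 CPM) and complex I subunits (4130 CPM). Over the 78 genes, 33 (42.3%) stood apart in the Nudt7 group, each with replicate 3 highest, against 6.21% of all genes tested with that library highest. In the GFP group 3 of the 78 (3.85%) did, against 5.12% of all genes, and of the genes named here this was Mrpl19 at 17.6 CPM in GFP replicate 3.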

How the results depend on the processing

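None of the 78 genes was called under any setting, but the median and the count of positive genes rested on Nudt7 replicate 3. The median log2 fold change (0.27) was 0.063 with limma-voom and sample weights, 0.10 with the length trend removed, and 0.066 and 0.068 with limma on log2(TPM + 0.5) and log2(TPM + 0.1). With the length trend removed and replicate 3 left out together, chosen after the data were seen, it was 0.037, with 48 genes positive. Leaving out 1 library at a time gave medians of 0.034 to 0.35 and 47 to 78 positive genes, the lowest each time without Nudt7 replicate 3. Higher genes at an unadjusted p under 0.05 numbered 1 (4.25% of all genes). They numbered 3 with RLE size factors (4.72%) or no filter (3.28%), and 2 with DESeq2 (4.87%) or the length trend removed (5.23%). They numbered 0 with limma-voom (3.96%, or 5.56% with weights), limma on TPM (1.78% and 1.76%) or the added setting (4.25%), and 0 to 10 with 1 library left out (3.12% to 5.40% of all genes). The correlation with length (-0.51) was -0.24 with the length of the most abundant transcript and -0.57 to -0.0016 with 1 library left out. Genes with Nudt7 above GFP in all libraries (0) numbered 1 on TPM (1.05% of all genes), 1 with the length trend removed (3.15%), and 0 to 5 with 1 library left out (3.47% to 4.96%).

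Of the 77 positive genes, 30 turned negative without replicate 3, 19 with the length trend removed, 29 with both, 24 with sample weights, 4 with plain limma-voom, 18 on TPM with either pseudocount and 1 with an effective length offset. Among the 23 genes named by rule, 7 changed sign in some setting. With sample weights, log2 fold changes were -0.13 (Mrpl15), -0.045 (Mrpl17), -0.042 (Mrpl19) and -0.089 (Mrpl23), and with plain limma-voom -0.0056 (Mrpl23). With the length trend removed they were -0.10 (Mrpl15), -0.11 (Mrpl17), -0.044 (Mrpl23), -0.016 (Mrpl52) and -0.019 (Mrps21), and with replicate 3 also left out -0.12 (Mrpl15), -0.096 (Mrpl17), -0.059 (Mrpl19), -0.11 (Mrpl23) and -0.035 (Mrpl52). On TPM they were -0.0917 (Mrpl15) and -0.0835 (Mrpl17) with a pseudocount of 0.5, and -0.0921 and -0.0837 with 0.1. With 1 library left out they ran from -0.12 to 0.15 (Mrpl15), -0.10 to 0.22 (Mrpl17), -0.050 to 0.12 (Mrpl19), -0.11 to 0.16 (Mrpl23), -0.14 to 0.079 (Mrpl38) and -0.040 to 0.47 (Mrpl52). The cause of these changes was not tested. No paired analysis was possible because the labels carry only animal numbers, and replicates were numbered in accession order. The low counts of Mrpl23 limit its precision.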
